A study of Mus musculus with 19 samples.

Results

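The genes described here encode the subunits of the proteasome and the proteins that assemble, activate or inhibit it. They were chosen by name from the array annotation as every gene called Psma, Psmb, Psmc, Psmd, Psme, Psmf or Psmg followed by a number. This gave 47 of the 30214 genes on the array, read by 58 probes. Of these, 45 genes and 56 probes passed the detection limit, a signal well over background on 4 or more of the 19 arrays, and were tested, among 24741 genes in all. Psma8, an alpha subunit of the testis, was above background on 1 array and Psmb11, the catalytic subunit of the thymus, on 3 arrays, and neither was tested. Psme2 had no probe under that symbol and is treated below with the probes named Psme2b.

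The proteasome degrades proteins tagged with ubiquitin. Its core particle, the 20S, is a barrel of alpha and beta rings, and 3 of the beta subunits carry the cutting sites. The regulatory particle, the 19S, caps the barrel, recognises ubiquitin, and unfolds the substrate with a ring of ATPases. Interferon induces an alternative set of catalytic subunits that make the immunoproteasome, and dedicated chaperones build both particles. In skeletal muscle the proteasome removes sarcomeric proteins during atrophy, and it also clears polyglutamine proteins.

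Quadriceps muscle RNA was measured on 1-colour Agilent arrays in male mice of the congenic C57Bl6J strain, 180 days old. The mice were wild type (CTR) or carried the AR113Q knock-in allele, in which the endogenous androgen receptor gene encodes an expanded glutamine tract, a model of spinal and bulbar muscular atrophy. From 40 days of age they received either normal chow (NCD) or a high-fat diet (HFD). On chow there were 5 samples of each genotype (CTR-NCD and AR113Q-NCD), and on the high-fat diet 4 wild-type (CTR-HFD) and 5 mutant samples (AR113Q-HFD). The comparisons ask how the mutant receptor and the diet, alone or together, bear on muscle gene expression. All samples were whole muscle taken at a single age, and the allele was present in every tissue that expresses the receptor. The sources used here do not say whether each sample was 1 mouse, so the p-values measure the spread between samples, which may in part be technical.

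Levels are given as log2 of the processed signal minus the 75th percentile of the same array, so that a level of 0 lies at that percentile. A level belongs to 1 probe, and levels of different genes were not compared, apart from a ranking of probes by brightness. Where a gene had several probes, the one with the highest mean over all arrays was used. A gene rose or fell when its Benjamini-Hochberg adjusted p from limma, adjusted over all 32026 probes tested, was under 0.05. Each array had 67.1% to 80.1% of its probes well above background. On the log2 scale the 75th percentile itself lay at 9.52 to 9.75 on chow in CTR and at 9.65 to 10.05 in AR113Q. On the high-fat diet it lay at 9.51 to 9.86 in CTR and at 9.86 to 10.18 in AR113Q, so the scaling constant tended to be higher in AR113Q. For this reason counts are also given after quantile normalization. All 6 skeletal muscle markers (Acta1, Ckm, Mylpf, Ttn, Myh4 and Tnnt3) were well detected. Their mean level ran on chow from 7.77 to 8.03 in CTR and from 7.38 to 7.55 in AR113Q, and on the high-fat diet from 7.81 to 8.02 in CTR and from 7.32 to 7.50 in AR113Q.

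On normal chow, 1 of 45 members rose in AR113Q and 7 fell, together 17.8% of the members, against 17.4% of all genes tested. On the high-fat diet 2 rose and 11 fell, 28.9% of the members against 17.9% of all genes. Averaged over both diets 3 rose and 15 fell, 40% of the members against 29.1% of all genes. With this scaling the share of members that passed was near that of all genes tested on chow and above it on the high-fat diet and over both diets. The member probes used were well above background on all arrays, and more genes passed among those so detected. In a fit to such genes 11.5% rose and 12.6% fell on chow, and 10.2% rose and 14.4% fell on the high-fat diet. Over both diets 16.8% of them rose and 21.4% fell. The 11 that fell on the high-fat diet became 5 without CTR-HFD replicate 4 and 7 without AR113Q-HFD replicate 3. With the slide that an array lay on as a block, 3 members rose and 13 fell on chow, where 9.96% of all genes rose and 14.7% fell, and 2 rose and 17 fell on the high-fat diet, where 9.48% rose and 19.1% fell. Over both diets the block gave 3 higher and 23 lower, where 14.8% of all genes rose and 25.4% fell. Split by direction, 8.31% of all genes rose and 9.04% fell on chow, 7.74% rose and 10.2% fell on the high-fat diet, and 13% rose and 16% fell over both diets. The median log2 difference over the members was -0.07 on chow, where that over all genes was -0.06. On the high-fat diet the medians were -0.14 and -0.08, and over both diets -0.11 and -0.07. These medians describe the list and carry no test.

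**Figure D1:**
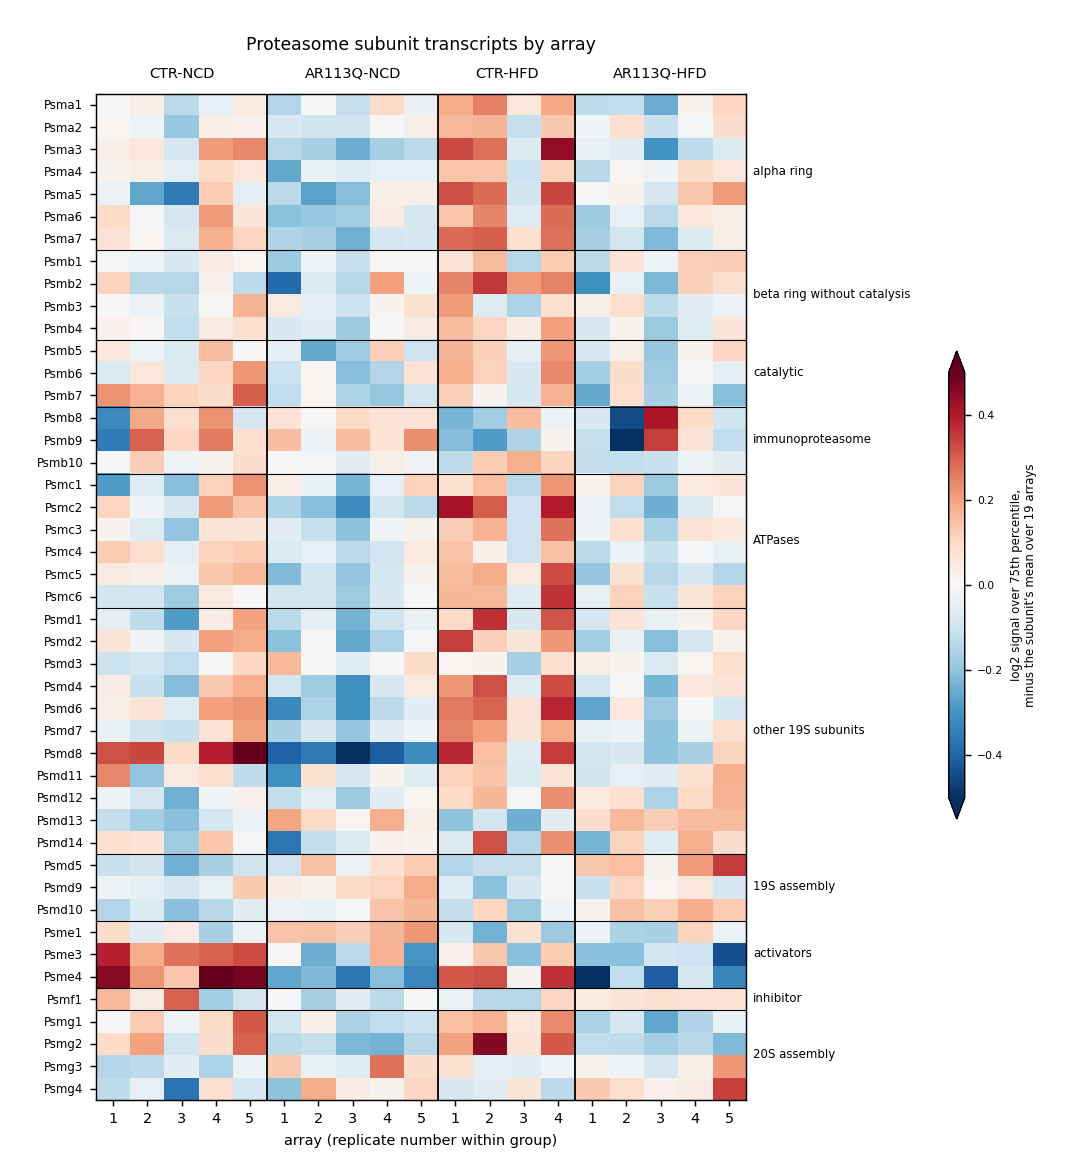
Log2 level of each tested member on each of the 19 arrays (75th percentile scaling), with genes ordered by role. Colours show the difference from the mean of the same probe over all 19 arrays. Psmd8 and Psme4 differ most between AR113Q-NCD and CTR-NCD, lower by 0.74 and 0.65 on average. Psmd13 is above the CTR-NCD mean on all AR113Q arrays.

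Scaling changed which members passed the test. After quantile normalization 5 members rose and 7 fell on chow (26.7%, against 18.3% of all genes), and 3 rose and 5 fell on the high-fat diet (17.8%, against 18.3%). By direction, 10.1% of all genes then rose and 8.24% fell on chow, and 10.3% rose and 7.97% fell on the high-fat diet. Over both diets 6 members rose and 11 fell (37.8%, against 30.9% of all genes, with 16.9% higher and 14% lower). The member medians on the 2 diets then lay at -0.00 and -0.01. On chow, Psmd13 rose and Psmb7, Psmd6, Psmd8, Psme3, Psme4 and Psmg2 fell under both scalings. On the high-fat diet, Psmd13 and Psmd5 rose and Psma7, Psmd6, Psme4, Psmg1 and Psmg2 fell under both. The other 6 that fell on the high-fat diet, namely Psma1, Psma3, Psmb2, Psmc2, Psmc5 and Psmd2, did so with 75th percentile scaling only. Member probes gave strong signals: 26 of the 45 lay in the brightest decile of all genes tested, a rank that also depends on the probe. The median difference over all genes of that decile was -0.07 on chow and -0.13 on the high-fat diet with 75th percentile scaling, and 0.04 and 0.03 after quantile normalization. The skeletal muscle markers moved the same way. All 6 fell on each diet with 75th percentile scaling, with medians of -0.36 and -0.49, and 2 of 6 fell after quantile normalization, with medians of 0.02 and -0.02. Their part in the member results was not tested, and in whole muscle a smaller share of fibres cannot be told apart from less of an RNA per fibre.

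**Figure D2:**
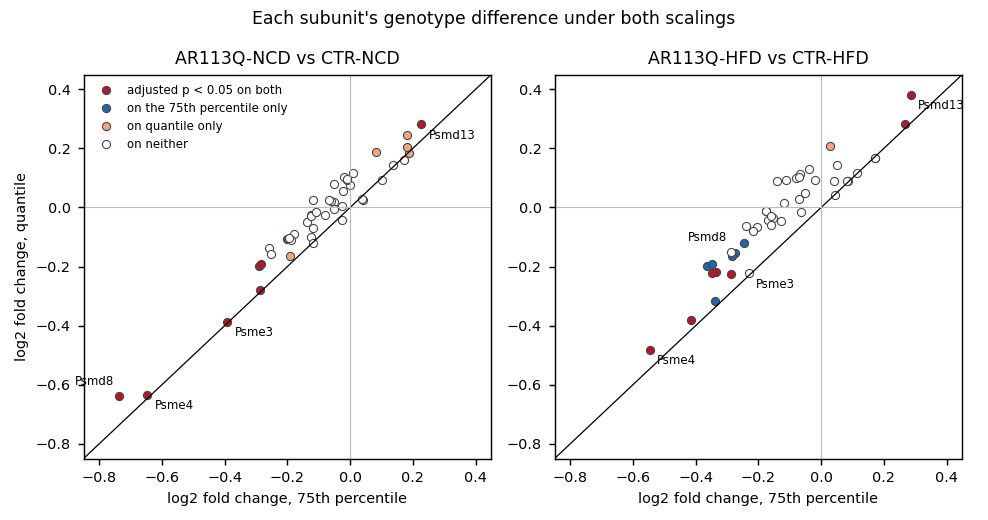
Log2 difference of each tested member between AR113Q and CTR with 75th percentile scaling (x axis) and after quantile normalization (y axis), on chow and on the high-fat diet. Most members lie above the diagonal, and the median moves from -0.14 to -0.01 on the high-fat diet.

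On chow Psme4, an activator, and Psmd8, a lid subunit, showed the largest differences, and their proximal promoters, with those of a core subunit that fell on the high-fat diet (Psma3), a catalytic subunit (Psmb5) and its immunoproteasome counterpart (Psmb8), are given for context. Each is the 250 bases before the annotated gene start in RefSeq (GRCm38.p6), written 5′ to 3′ on the strand of the gene. Capitals mark a match to 1 of 4 motifs searched on both strands: TGACNNNGC, the core of the antioxidant response element used by Nfe2l1 and Nfe2l2; CCAAT, the box bound by NF-Y; the interferon-stimulated response element, as a pair of GAAA blocks with 2 bases between them; and TTCNNNGAA, a STAT site.
Psme4, chr11:30771525-30771774, plus strand: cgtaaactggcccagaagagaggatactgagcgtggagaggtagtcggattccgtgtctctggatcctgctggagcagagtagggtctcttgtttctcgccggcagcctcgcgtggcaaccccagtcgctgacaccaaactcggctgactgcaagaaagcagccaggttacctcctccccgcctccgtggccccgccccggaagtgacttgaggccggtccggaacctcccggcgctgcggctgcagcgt
Psmd8, chr7:29180674-29180923, minus strand: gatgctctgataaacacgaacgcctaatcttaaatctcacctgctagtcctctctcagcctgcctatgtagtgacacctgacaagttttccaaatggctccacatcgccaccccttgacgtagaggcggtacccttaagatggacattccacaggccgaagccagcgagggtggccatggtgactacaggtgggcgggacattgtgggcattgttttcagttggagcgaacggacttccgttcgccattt
Psma3, chr12:70974373-70974622, plus strand: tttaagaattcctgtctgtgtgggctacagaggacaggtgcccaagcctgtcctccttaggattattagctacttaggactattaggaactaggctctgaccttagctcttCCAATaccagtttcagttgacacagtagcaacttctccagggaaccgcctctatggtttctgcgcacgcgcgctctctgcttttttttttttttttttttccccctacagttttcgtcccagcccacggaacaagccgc
Psmb5, chr14:54617996-54618245, minus strand: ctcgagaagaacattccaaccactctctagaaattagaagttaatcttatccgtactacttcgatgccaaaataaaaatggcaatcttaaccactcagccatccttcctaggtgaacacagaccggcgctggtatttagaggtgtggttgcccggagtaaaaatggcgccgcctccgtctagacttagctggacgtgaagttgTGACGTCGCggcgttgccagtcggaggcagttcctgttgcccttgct
Psmb8, chr17:34197945-34198194, plus strand: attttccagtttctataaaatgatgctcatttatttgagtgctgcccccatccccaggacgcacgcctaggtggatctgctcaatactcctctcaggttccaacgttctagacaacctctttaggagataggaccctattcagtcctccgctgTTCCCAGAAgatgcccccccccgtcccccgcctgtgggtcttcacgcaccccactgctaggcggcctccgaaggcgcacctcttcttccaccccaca
The Psme4 and Psmd8 windows held none of the motifs, Psma3 held a CCAAT box, Psmb5 a TGACNNNGC match and Psmb8 a TTCNNNGAA match. Windows were found for 38 of the 45 tested members, and a match is only a description of letters. TGACNNNGC was in 5 of the 38 (13.2%, against 10.1% of all promoters of this length), namely Psmb5, Psmb6, Psmc6, Psmd12 and Psmd9. CCAAT was in 13 (34.2%, against 34.5%). The pair of GAAA blocks was in 3 (7.89%, against 3.04%), namely Psmb3, Psmd4 and Psmd9, and in no immunoproteasome subunit. TTCNNNGAA was in 2 (5.26%, against 7.18%), namely Psmb8 and Psmg1.

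Among the 3 tested activators, which open the core barrel from its ends, Psme4 and Psme3 fell. Psme4 encodes PA200, a nuclear activator that works without ATP and promotes the degradation of acetylated histones. Its level was 2.61, 2.37, 2.29, 2.71 and 2.63 on the CTR-NCD arrays and 1.89, 1.93, 1.79, 1.94 and 1.82 on the AR113Q-NCD arrays. It was 2.45, 2.47, 2.16 and 2.51 in CTR-HFD and 1.63, 2.03, 1.74, 2.06 and 1.82 in AR113Q-HFD. Every AR113Q array lay below every CTR array, with no overlap on either diet. The log2 difference was -0.65 (SE 0.101, limma adjusted p = 2.64e-04) on chow, or 0.639 times the CTR level, and -0.55 (SE 0.107, limma adjusted p = 0.00173) on the high-fat diet, or 0.685 times. A second Psme4 probe gave -0.53 (limma adjusted p = 0.006) and -0.60 (limma adjusted p = 0.0036). The probes lie at chr11:30756055-30756114 and chr11:30710953-30711012 in the array's annotation (mm9). Over both diets Psme4 fell under all 29 alternative settings without a fold threshold.

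Psme3 encodes PA28 gamma, a nuclear activator of the core. Its level was -0.54 ± 0.07 (SD, n = 5) in CTR-NCD, -0.93 ± 0.19 (n = 5) in AR113Q-NCD, -0.82 ± 0.16 (n = 4) in CTR-HFD and -1.05 ± 0.14 (n = 5) in AR113Q-HFD. The CTR-NCD arrays, at -0.65 to -0.45, lay above the AR113Q-NCD arrays, at -1.13 to -0.66, while the high-fat diet groups overlapped. The log2 difference was -0.39 (SE 0.0954, limma adjusted p = 0.00835) on chow and -0.23 (limma adjusted p = 0.138) on the high-fat diet. Psme1 encodes PA28 alpha, the interferon-induced activator linked to antigen processing. Its difference was 0.18 (limma adjusted p = 0.0906) on chow and 0.05 (limma adjusted p = 0.716) on the high-fat diet, and the chow value passed after quantile normalization (0.24, limma adjusted p = 0.0369). All AR113Q-NCD arrays, at 3.62 to 3.72, were above all CTR-NCD arrays, at 3.34 to 3.59. Psme2, the partner of Psme1 in PA28, had no probe of its own name, but 2 of the 3 probes named Psme2b also list a Psme2 transcript and were looked up after the other values were known. On chow those 2 gave 0.18 (limma adjusted p = 0.0342) and 0.17 (limma adjusted p = 0.0408), and on the high-fat diet 0.12 (limma adjusted p = 0.186) and 0.23 (limma adjusted p = 0.00816). Signal from the near-identical copies cannot be separated by these probes, and the third probe gave 0.02 on chow. Psmf1, which encodes the inhibitor PI31, did not pass the test, at -0.12 on chow and 0.12 on the high-fat diet.

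Of the 11 further 19S subunits, which form the lid and the base around the ATPases, Psmd8 and Psmd6 fell and Psmd13 rose on chow. Psmd8 encodes Rpn12, a lid subunit. Its level was 4.93, 4.95, 4.71, 5.01 and 5.12 in CTR-NCD and 4.21, 4.26, 4.05, 4.20 and 4.30 in AR113Q-NCD. It was 4.99, 4.76, 4.55 and 4.96 in CTR-HFD and 4.52, 4.54, 4.41, 4.45 and 4.72 in AR113Q-HFD. The groups were far apart on chow and overlapped on the high-fat diet. The log2 difference was -0.74 on chow (SE 0.0938, limma adjusted p = 4.2e-05), or 0.599 times the CTR level, the largest of any member, and -0.29 on the high-fat diet (SE 0.0994, limma adjusted p = 0.0567; -0.28 with the slide block, limma adjusted p = 0.00391). Its probe lies on the minus strand at chr7:29961170-29962121 (mm9). The test of the difference between the diets, the interaction term, gave 0.45 (SE 0.137) with an unadjusted p of 0.0042 and a limma adjusted p of 0.914, so the chow and high-fat effects were not shown to differ.

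**Figure D3:**
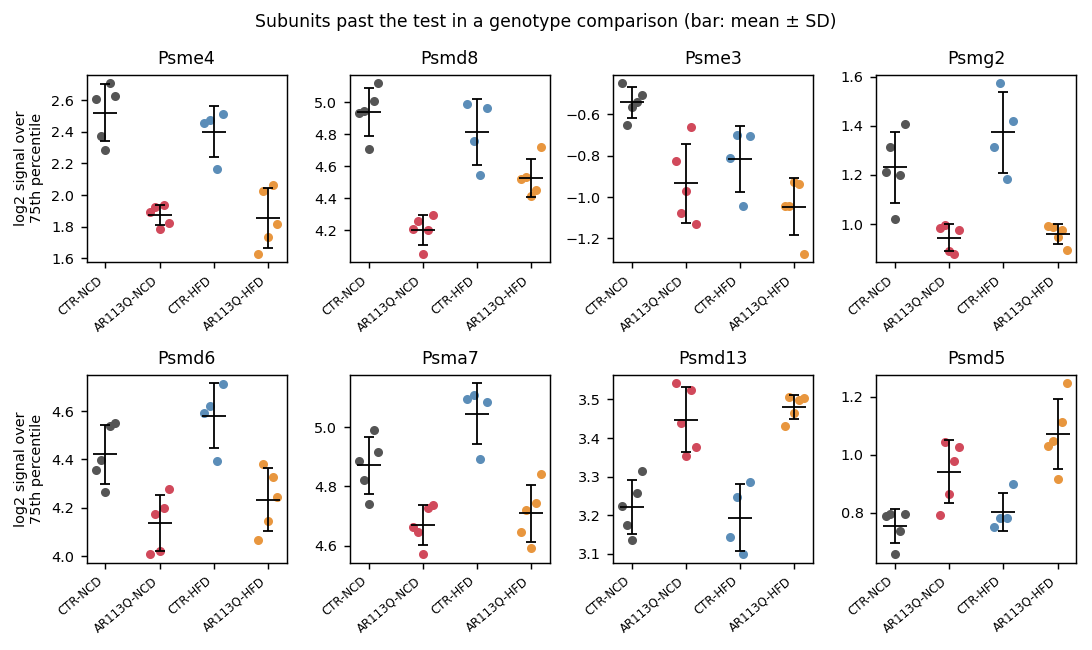
Log2 level (75th percentile scaling) on each array by group for members named in the text, with points for arrays and bars for the group mean and SD. Psme4 separates the genotypes on both diets, Psmd8 on chow, and Psmd13 runs the opposite way with AR113Q at 3.35 to 3.54 and CTR at 3.1 to 3.31.

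Psmd13 encodes Rpn9, also of the lid. Its level was 3.22, 3.17, 3.14, 3.26 and 3.31 in CTR-NCD and 3.54, 3.44, 3.35, 3.52 and 3.38 in AR113Q-NCD. It was 3.14, 3.25, 3.1 and 3.29 in CTR-HFD and 3.43, 3.51, 3.47, 3.50 and 3.50 in AR113Q-HFD. All AR113Q arrays were above all CTR arrays on both diets. On chow Psmd8 and Psmd13, 2 lid subunits of the same particle, thus moved in opposite directions on the same arrays. The log2 difference of Psmd13 was 0.23 (SE 0.0564, limma adjusted p = 0.00962) on chow and 0.29 (SE 0.0598, limma adjusted p = 0.00276) on the high-fat diet. Over both diets Psmd13 passed under all 29 alternative settings without a fold threshold. Its probe lies at chr7:148084248-148084307 (mm9). Psmd6, which encodes the lid subunit Rpn7, fell by 0.28 on chow (SE 0.0837, limma adjusted p = 0.0257) and by 0.35 on the high-fat diet (SE 0.0888, limma adjusted p = 0.0111). Its arrays ran from 4.27 to 4.55 in CTR-NCD and from 4.01 to 4.28 in AR113Q-NCD, with a slight overlap, and with none on the high-fat diet, where CTR ran from 4.40 to 4.71 and AR113Q from 4.07 to 4.38. Psmd2, the large base scaffold Rpn1 that docks ubiquitin shuttles, fell on the high-fat diet (-0.28, limma adjusted p = 0.025), and with the slide block on chow too (-0.20, limma adjusted p = 0.0392). Psmd7, the partner of the deubiquitinase Psmd14, fell over both diets (-0.16, limma adjusted p = 0.025), a call lost after quantile normalization, and with the slide block on the high-fat diet (-0.23, limma adjusted p = 0.00831). Psmd14 itself, which strips ubiquitin chains from substrates, was at -0.12 on chow and -0.06 on the high-fat diet, and the ubiquitin receptor Psmd4 at -0.13 and -0.24, all without passing, although Psmd4 fell on the high-fat diet with the slide block (-0.26, limma adjusted p = 0.00414). Psmd3 rose on chow, on the high-fat diet and over both diets, but after quantile normalization only. Psmd1, Psmd11 and Psmd12 passed under neither scaling.

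None of the 6 ATPases of the base passed on chow. At an unadjusted p under 0.05, 3 were lower there. At least 9.04% of all genes were lower at that level, the share that fell after adjustment. With the slide block Psmc2 (-0.25, limma adjusted p = 0.00665) and Psmc5 (-0.19, limma adjusted p = 0.0279) fell on chow. On the high-fat diet Psmc2 fell by 0.35 (SE 0.0979, limma adjusted p = 0.0199) and Psmc5 by 0.28 (SE 0.0739, limma adjusted p = 0.0144). Psmc2 ran from 5.28 to 5.79 in CTR-HFD and from 5.14 to 5.37 in AR113Q-HFD, and the overlap came from a single low CTR-HFD array, replicate 3. The high-fat call of Psmc2 was lost in 4 of the 19 fits without 1 array. Psmc4 fell over both diets (-0.13, limma adjusted p = 0.0382), a call lost in 12 of the 19 fits without 1 array and after quantile normalization. The other three, Psmc1, Psmc3 and Psmc6, lay between -0.13 and 0.01 on the 2 diets and did not pass.

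In the alpha ring, whose 7 subunits gate entry into the barrel, Psma7 fell on both diets, Psma3 and Psma1 on the high-fat diet, and Psma6 over both diets (-0.19, limma adjusted p = 0.0194), the last a call lost after quantile normalization. Psma7 was 4.88, 4.82, 4.74, 4.99 and 4.92 in CTR-NCD and 4.66, 4.65, 4.57, 4.73 and 4.74 in AR113Q-NCD. It was 5.09, 5.11, 4.89 and 5.09 in CTR-HFD and 4.65, 4.72, 4.59, 4.74 and 4.84 in AR113Q-HFD. The genotypes did not overlap on the high-fat diet, and on chow they were parted by a narrow gap. The log2 difference was -0.20 (SE 0.0659, limma adjusted p = 0.043) on chow and -0.34 (SE 0.0699, limma adjusted p = 0.00266) on the high-fat diet. The chow call was lost in 12 of the 19 fits that left out 1 array and after quantile normalization. Psma3 was -0.26 (limma adjusted p = 0.0542) on chow and fell by 0.36 (limma adjusted p = 0.0121) on the high-fat diet. With the slide block Psma3 fell on chow (limma adjusted p = 0.00743), and Psma6 fell on chow (-0.18, limma adjusted p = 0.0326) and on the high-fat diet (-0.24, limma adjusted p = 0.0102). Psma1 was at -0.02 on chow and fell by 0.25 (limma adjusted p = 0.0306) on the high-fat diet, its CTR-HFD arrays lying at 4.20 to 4.40 and its AR113Q-HFD arrays at 3.90 to 4.25. The Psma1 call was lost in 6 of the 19 fits without 1 array. Psma2, Psma4 and Psma5 did not pass in either comparison. Without quantile normalization, of the 14 alpha ring differences on the 2 diets only that of Psma5 on chow, at 0.00, was not below 0. After quantile normalization Psma2 was higher on average in AR113Q on both diets, without passing. So were Psma1 and Psma5 on chow and Psma4 on the high-fat diet, while the other differences stayed below 0.

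Of the 3 constitutive catalytic subunits, Psmb7, which cuts after basic residues, fell on chow. It was 5.18, 5.13, 5.07, 5.04 and 5.25 in CTR-NCD and 4.83, 4.96, 4.80, 4.76 and 4.86 in AR113Q-NCD, without overlap. The log2 difference was -0.29 (SE 0.0741, limma adjusted p = 0.0114) on chow and -0.17 (SE 0.0786, limma adjusted p = 0.166) on the high-fat diet. Psmb5, the chymotrypsin-like subunit and the main target of proteasome inhibitor drugs, was at -0.12 (limma adjusted p = 0.37) and -0.14 (limma adjusted p = 0.294). Psmb6, the caspase-like subunit, was at -0.13 (limma adjusted p = 0.354) and -0.17 (limma adjusted p = 0.197), and with the slide block it fell on the high-fat diet (-0.18, limma adjusted p = 0.0465). Of the 4 structural beta subunits, Psmb2 fell on the high-fat diet (-0.34, SE 0.11, limma adjusted p = 0.0409) with CTR-HFD at 0.99 to 1.14 and AR113Q-HFD at 0.48 to 0.90. The Psmb2 call was lost in 8 of the 19 fits without 1 array. Psmb1, Psmb3 and Psmb4 did not pass, at -0.18 to -0.01, and Psmb4 fell on the high-fat diet with the slide block (-0.18, limma adjusted p = 0.00714).

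**Figure D4:**
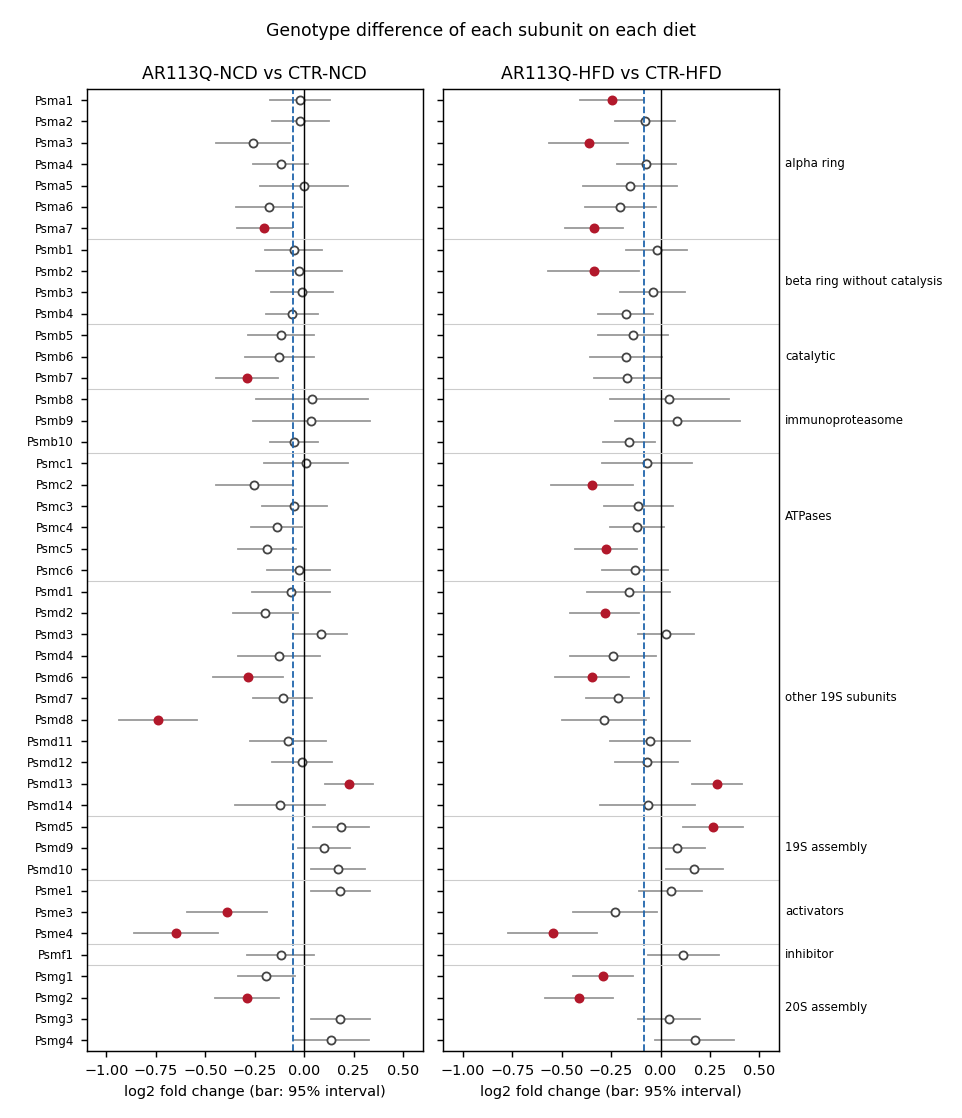
Log2 difference between AR113Q and CTR for each tested member on chow and on the high-fat diet (75th percentile scaling), ordered by role, with bars for 95% confidence intervals, filled points for an adjusted p under 0.05 and a dashed line at the median of all genes. On chow the 19S subunits range from -0.74 for Psmd8 to 0.23 for Psmd13, and the activators from -0.65 for Psme4 to 0.18 for Psme1.

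Without the slide block and with 75th percentile scaling the immunoproteasome subunits did not pass in any comparison. With the block Psmb10 fell over both diets (-0.11, limma adjusted p = 0.0493). Psmb8, the interferon-induced counterpart of Psmb5, was 0.55 ± 0.22 (SD, n = 5) in CTR-NCD, 0.59 ± 0.04 (n = 5) in AR113Q-NCD, 0.46 ± 0.17 (n = 4) in CTR-HFD and 0.51 ± 0.31 (n = 5) in AR113Q-HFD. The differences were 0.04 (95% interval -0.24 to 0.32) on chow and 0.05 (-0.25 to 0.34) on the high-fat diet. Psmb9, the counterpart of Psmb6, differed by 0.04 and 0.08, and Psmb10, that of Psmb7, by -0.05 (limma adjusted p = 0.641) and -0.16 (limma adjusted p = 0.0884). A second, dimmer Psmb9 probe was well above background on only 8 arrays, of which 4 were CTR-NCD, and gave -0.88 (limma adjusted p = 0.0576) on chow and -0.23 (limma adjusted p = 0.697) on the high-fat diet, so the 2 probes disagreed. The difference between each immunoproteasome subunit and its counterpart on the same array is free of a scaling constant, but not of brightness-dependent shifts. Of 6 such comparisons, Psmb10 minus Psmb7 was 0.24 higher in AR113Q on chow (2-sided exact permutation p = 0.00794, the smallest that 252 arrangements allow; adjusted over 6, 0.0476), and by 0.01 on the high-fat diet (exact permutation p = 0.944). The chow value kept its direction but lost its adjusted call after quantile normalization (0.19, adjusted exact permutation p = 0.0952). Psmb8 minus Psmb5 differed by 0.16 (exact permutation p = 0.214) and 0.19 (exact permutation p = 0.468), and Psmb9 minus Psmb6 by 0.16 (exact permutation p = 0.206) and 0.26 (exact permutation p = 0.294). After quantile normalization Psmb8 minus Psmb5 differed by -0.00066 on chow and -0.047 on the high-fat diet. The Psmb8 and Psmb9 probes lay at brightness percentiles 70.7 and 67.3, and those of Psmb5 and Psmb6 at 98.7 and 97.8. The part of brightness in these differences was not tested. Of 13 MHC class I and interferon genes, 0 passed by limma on either diet, where 17.4% of all genes passed on chow and 17.9% on the high-fat diet. At an unadjusted p under 0.05, 2 were higher on chow and 1 on the high-fat diet. At least 8.31% and 7.74% of all genes were higher at that level, the shares that rose after adjustment. Over both diets H2-K1 and Tap2 rose, where 13% of all genes rose.

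**Figure D5:**
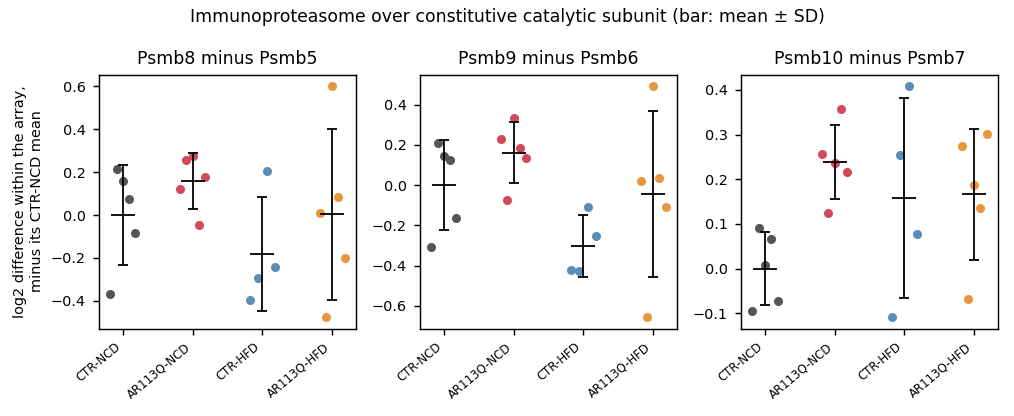
Within-array log2 difference of each immunoproteasome subunit and its constitutive counterpart, by group, relative to the CTR-NCD mean, with points for arrays and bars for mean and SD. Psmb10 minus Psmb7 is higher by 0.24 in AR113Q-NCD than in CTR-NCD, without overlap, and the genotypes overlap in all other comparisons.

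Of the chaperones, 2 of the core fell on at least 1 diet and 1 of the 19S rose. Psmg1 and Psmg2 form the dimer that seeds the alpha ring. Psmg2 was 1.21, 1.32, 1.02, 1.20 and 1.41 in CTR-NCD and 0.98, 1.0, 0.89, 0.88 and 0.97 in AR113Q-NCD. It was 1.32, 1.57, 1.18 and 1.42 in CTR-HFD and 0.99, 0.99, 0.95, 0.98 and 0.89 in AR113Q-HFD. No AR113Q array reached a CTR array of its diet. Psmg2 fell by 0.29 on chow (SE 0.0766, limma adjusted p = 0.0147) and by 0.41 on the high-fat diet (SE 0.0812, limma adjusted p = 0.00173). Psmg1 was at -0.19 (limma adjusted p = 0.0626) on chow (limma adjusted p = 0.014 with the slide block) and fell by 0.29 (limma adjusted p = 0.0093) on the high-fat diet. Its second probe was at -0.26 (limma adjusted p = 0.769) and -0.86 (limma adjusted p = 0.235), not passing. On chow that probe separated the groups in the same direction, with CTR at -0.17 to 0.12 and AR113Q at -0.41 to -0.22. On the high-fat diet AR113Q-HFD replicate 4 read -3.35 against -0.34 to -0.16 on the other 4 arrays, and without it the difference was -0.24. The other two core chaperones, Psmg3 and Psmg4, were at 0.18 and 0.14 on chow and 0.04 and 0.17 on the high-fat diet, and did not pass. After quantile normalization Psmg3 rose on chow (0.21, limma adjusted p = 0.0411) and over both diets (0.15, limma adjusted p = 0.0278), and Psmg1 fell on chow. Psmd5, Psmd10 and Psmd9, which help to assemble the base of the 19S, were all positive on both diets. Psmd5 was 0.79, 0.80, 0.66, 0.74 and 0.80 in CTR-NCD, 0.79, 1.05, 0.87, 0.98 and 1.03 in AR113Q-NCD, 0.75, 0.78, 0.78 and 0.90 in CTR-HFD and 1.03, 1.05, 0.92, 1.11 and 1.25 in AR113Q-HFD. It rose by 0.27 on the high-fat diet (SE 0.0716, limma adjusted p = 0.0146) and was at 0.19 on chow (limma adjusted p = 0.0689, or 0.0206 with the slide block). After quantile normalization Psmd5 rose on chow too. Psmd10, gankyrin, rose over both diets by 0.17 (limma adjusted p = 0.0111), and on chow with the slide block (0.17, limma adjusted p = 0.0366). The second probe of Psmd9 rose over both diets by 0.14 (limma adjusted p = 0.0426), while its main probe, at 0.09, did not pass.

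Each slide held arrays of both genotypes, so the member results could be set against slide. All 8 members that passed on chow differed the same way on all 5 slides, and all 13 that passed on the high-fat diet on all 4 slides that held both groups. These members were picked by their difference on the same arrays, so such agreement is largely built in and is not separate evidence. With the slide as a block, 16 members passed on chow and 19 on the high-fat diet, among them all 8 and all 13 that passed without it. The block also raised the calls over all genes, to 9.96% higher and 14.7% lower on chow and 9.48% and 19.1% on the high-fat diet. Over both diets 26 passed, where 14.8% of all genes rose and 25.4% fell. Psma1, Psmb2, Psmb4, Psmb5, Psmb6, Psmb10, Psmc3 and Psmd4 were added, all lower. Without the block, 5 members passed on both diets: Psma7, Psmd6, Psme4 and Psmg2, which fell, and Psmd13, which rose. These are 62.5% of those that passed on chow and 38.5% of those on the high-fat diet, where over all genes the shares were 68.9% and 66.6%. After quantile normalization 7 members passed on both diets, 58.3% and 87.5% of those that passed on each, against 65.7% and 65.7% over all genes. The groups did not overlap for 3 members higher and 8 lower on chow, against 7.4% and 8.08% of all genes, and for 2 higher and 7 lower on the high-fat diet, against 7.19% and 8.46%.

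Diet changed no member past the threshold under either scaling. In AR113Q muscle 0 of 45 passed by limma between the diets (0.0202% of all genes, or 0.0243% after quantile normalization), with Psmd8 higher by 0.33 and Psme1 lower by 0.21 on the high-fat diet at an unadjusted p under 0.05 (limma adjusted p = 0.462 and 0.54), a level reached by 3.21% of all genes upward and 3.46% downward. In CTR muscle 0 of 45 passed (0% of all genes), with 8 higher and 1 lower at that unadjusted level (5.13% and 3.26% of all genes). The 8 were Psma1, Psma5, Psma7, Psmb2, Psmc6, Psmd1, Psmd7 and Psmd12, and the lower one was Psme3. The medians over the members were 0.04 in AR113Q and 0.07 in CTR, where those over all genes were 0.00 and 0.02. For the interaction of genotype and diet 0 of 45 passed (0% of all genes), and at an unadjusted p under 0.05 only Psmd8 (higher) and Psma1 (lower) did, against 1.85% and 2.75% of all genes.

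Genes of the same pathway outside the Psm names were described by lists. Over all genes tested, 8.31% rose and 9.04% fell on chow, and 7.74% rose and 10.2% fell on the high-fat diet. Of 9 further proteasome genes, 1 rose and 3 fell on chow, and 1 rose and 2 fell on the high-fat diet. Akirin2, which carries proteasomes into the nucleus, rose by 0.41 and 0.32. Adrm1, the ubiquitin receptor Rpn13, was at -0.30 and -0.38, and Zfand5, which stimulates the 26S particle in muscle, at -0.47 and -0.65, and both fell on both diets. Uchl5, the deubiquitinase that binds Adrm1, fell by 0.25 on chow. Of 12 genes for ubiquitin and its delivery, 3 fell on chow and 4 on the high-fat diet and none rose. The shuttles Ubqln4 (by 0.60 and 0.55) and Rad23b (by 0.46 and 0.41), which carry ubiquitinated proteins to the proteasome, fell on both diets. Of 7 transcription regulators of proteasome genes, 2 rose and 2 fell on chow, and 1 rose and 2 fell on the high-fat diet. Nfe2l2 rose by 0.51 and Nfya by 0.43 on chow, Nfe2l1, the factor that restores proteasome genes when the proteasome is inhibited, rose by 0.49 on the high-fat diet, and Nfyb and Ngly1, the enzyme that Nfe2l1 needs, fell on both diets. After quantile normalization the ubiquitin list had 2 higher and 3 lower on chow, where 10.1% of all genes rose and 8.24% fell. Among markers of other cells, 0 of 7 macrophage genes passed by limma on either diet (1 higher at an unadjusted p under 0.05 on each), and of 7 leukocyte genes 0 passed on chow (1 lower at an unadjusted p under 0.05) and 1 fell on the high-fat diet. Of the endothelial, adipocyte, fibroblast, red blood cell and Schwann cell markers 0 passed on either diet by limma, with 1 endothelial and 1 adipocyte gene lower at an unadjusted p under 0.05 on the high-fat diet. At that unadjusted level at least 8.31% of all genes were higher and 9.04% lower on chow. On the high-fat diet at least 7.74% were higher and 10.2% lower. These are the shares that passed after adjustment.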

How the data were processed

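Total RNA of 19 quadriceps samples was labelled with Cy3 and hybridised to 1-colour Agilent arrays on 5 slides. Per the file headers, the authors made the deposited intensity values with Agilent Feature Extraction 10.7.3.1. The authors also deposited a value table whose values match a log2 scale with the arrays centred alike, although the scale and centring are not stated. It served here as an alternative only. The members and gene lists were chosen with earlier results of these data known.

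Control spots were dropped, spots of a probe averaged, and log2 of the processed signal taken minus the 75th percentile of each array, or quantile normalized. Probes well above background on at least 4 arrays were kept (39429 to 32026). limma 3.58.1 (R 4.3.3) was fitted to the 4 groups with eBayes, with Benjamini-Hochberg adjustment over probes. Precision is limited by how many arrays each group has. Genes named with full values were those that passed in any comparison, the immunoproteasome subunits with their counterparts, and members whose probes disagreed. The fit was tested on simulated data. Replicate numbers, taken from the sample titles, match the slide for every sample but 1. Deviations from the group means of same-numbered arrays correlated at 0.24 to 0.45 in all 5 chow pairs and at -0.21 to 0.43 in the high-fat pairs. On chow same-numbered arrays also share a slide, so a pairing of samples cannot be told apart from the slide. Blocked values stand beside results whose call they change. Alternatives covered scaling, background correction, detection filter, array weights, slide or replicate block, mean of probes, fold thresholds and leaving out each array. Skeletal muscle, macrophage, leukocyte, endothelial, adipocyte, fibroblast, red blood cell and Schwann cell markers were examined. Some genes of the lists are counted but their values are not reported here. Promoter sequences came from RefSeq (GRCm38.p6). The probe positions given are mm9 and were not converted.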

Additional observations from a re-analysis of the deposited data

Results flagged for a closer look

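Of 104 checks of the lowest and highest array within a group, 4 found an array far from the others, where chance gives about 1 in 20. Psma7 was 4.89 in CTR-HFD replicate 3, where the other 3 arrays lay at 5.09 to 5.11. Psme4 was 2.16 in the same array, where the others lay at 2.45 to 2.51. Psmc4 was 4.24 in CTR-NCD replicate 3, where the others lay at 4.38 to 4.42. Psmb8 was 0.53 in AR113Q-NCD replicate 2, where the others lay at 0.60 to 0.63. All of these were low arrays, and 3 of the 4 lay in a CTR group.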

How the results depend on the processing

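The diet comparisons gave 0 members past the threshold under every alternative tried. Psmd13, Psme3 and Psme4 over both diets passed under all 29 settings other than the fold thresholds, and Psmd5, Psmd8 and Psmg2 over both diets under 28. The second Psmb9 probe was well above background on 8 arrays only. Causes of the changes below were not tested.

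After quantile normalization 5 members rose on chow, 5 fell on the high-fat diet (median -0.012) and 6 rose over both diets (median -0.017). The pair differences became -0.00066 (Psmb8 minus Psmb5, chow), -0.047 (the same, high-fat) and, for Psmb10 minus Psmb7, 0.19 on chow and -0.019 on the high-fat diet. With median centring 0 rose and 2 fell on chow, 0 rose and 0 fell on the high-fat diet, and 4 fell over both, where 4.09% and 3.26%, 4.45% and 3.06%, and 10.8% and 8.58% of all genes rose and fell. With normexp, which moved the median of all genes to -0.51 on chow, -0.03 on the high-fat diet and -0.30 over both, 0 rose and 0 fell on each diet, and 1 rose and 2 fell over both (3.65% and 3.86% of all genes, and at most 1.8% either way on each diet). Member medians were then 0.16 on chow, 0.012 over both diets and 0.43 for the diet in CTR. Psma7 (0.082), Psmb7 (0.033) and Psmd6 (0.029) on chow and Psmb10 (0.028) over both diets changed sign, as did Psmb8 minus Psmb5 (-0.062) and Psmb9 minus Psmb6 (-0.16) on chow, and Psmb10 minus Psmb7 was 0.20. With the authors' values 3 rose and 4 fell on chow, 3 fell on the high-fat diet (median 0.0014) and 8 over both (median -0.0038), where 8.19%, 7.5% and 13.7% of all genes fell. Psmb10 minus Psmb7 was then 0.17 on chow and -0.017 on the high-fat diet, and Psmb8 minus Psmb5 was -0.037 on the high-fat diet. Requiring detection on all arrays gave 2 higher on chow. The mean of all probes gave -0.25 for Psmb9 over both diets. With added fold thresholds of 1.5 and 0.6, 0 rose and 1 fell on chow (Psmd8), 0 rose and 0 fell on the high-fat diet, and 0 and 0 over both, where 1.92% to 2.79% of all genes passed in each direction.

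The slide block gave 3 higher and 13 lower on chow, 17 lower on the high-fat diet and 23 lower over both diets. Of all genes 9.96% then rose and 14.7% fell on chow, 19.1% fell on the high-fat diet and 25.4% fell over both. A replicate block gave 3 and 13 on chow, where 9.56% of all genes rose and 13% fell. On the high-fat diet it gave 17 lower, where 13.9% fell. Neither block removed a call on chow or on the high-fat diet. Leaving out 1 array gave 1 to 2 higher and 5 to 9 lower on chow, 2 to 3 higher and 5 to 15 lower on the high-fat diet, and 3 to 4 higher and 14 to 21 lower over both. The 5 came without CTR-HFD replicate 4, the 15 without CTR-HFD replicate 3, and 7 fell without AR113Q-HFD replicate 3. Psmb10 minus Psmb7 ranged from 0.21 to 0.27 on chow, losing its adjusted call without CTR-NCD replicate 1, 3 or 5, and from -0.0799 to 0.092 on the high-fat diet. Psmb8 over both diets ranged from -0.011, without AR113Q-HFD replicate 3, to 0.096.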
